A study of Homo sapiens with 30 samples.

Results

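The Wnt ligands, their receptors and antagonists and the LEF/TCF factors were followed in H1299 cells, a human lung carcinoma line without p53, after expression of wild type p53, a p53 mutant, or p53 from a template that carries O6-methylguanine (O6-meG). The genes were chosen by name. Every protein-coding gene of the count table whose symbol is WNT or FZD followed by a number was taken, with the DKK and SFRP families and 10 further genes (LRP5, LRP6, RNF43, ZNRF3, AXIN1, AXIN2, LEF1, TCF7, TCF7L1 and TCF7L2). This gave 47 of the 39359 genes in the table: 19 ligands, 10 Frizzled receptors, 2 co-receptors, 8 secreted antagonists, 2 receptor ubiquitin ligases, 2 AXIN scaffolds and 4 LEF/TCF factors.

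Wnt proteins are secreted, lipid-modified ligands that bind a Frizzled receptor, alone or with the co-receptor LRP5 or LRP6. In canonical signalling this binding stops the AXIN-based destruction complex from marking beta-catenin for degradation, and beta-catenin then acts in the nucleus with LEF/TCF factors. DKK proteins bind the LRP co-receptors and SFRP proteins bind the ligands, and RNF43 and ZNRF3 remove Frizzled receptors from the cell surface. AXIN2 and LEF1 are themselves induced by beta-catenin in many tissues, and Wnt signalling is known in lung for its part in branching and in the upkeep of alveolar cells.

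The cells were transiently transfected with pGFP, which expresses GFP alone, or with a vector that expresses GFP and p53 from separate promoters. The p53 was wild type, the RW mutant (changed at the codon that carries the lesion in the O6-meG vector) or p53 O6-meG, with the lesion in the transcribed strand. The group called p53 TM, for transcriptional mutagenesis, carried the same O6-meG vector in cells given O6-bzG at 10 µM before transfection, which inactivates the repair protein AGT, and was the only group to receive it. Cells with GFP were collected by sorting 6 h or 24 h later, and bulk RNA of 3 replicates of each of the 10 groups was sequenced as 30 libraries. All groups share the cell line, the transfection and the sort, and H1299 is 1 tumour line, so the values describe ectopic p53 in that line. The methods of the study call the replicates biological, the labels do not say whether they are separate cultures, and P values measure the spread between these libraries. In bulk RNA, fewer cells that express a gene and less of its RNA per cell cannot be told apart.

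Between 32302699 and 71950532 reads were counted per library. CDKN1A, the cell cycle inhibitor that p53 induces, rose 12.8-fold with wild type p53 at 24 h. The 2 libraries of replicate 2 at 6 h whose titles name p53 O6-meG in a part and p53 TM in another were put in no group, which leaves 2 replicates of each of these groups at 6 h, and their values are given by themselves. Of the markers of other cells, the leukocyte gene PTPRC and the surfactant gene SFTPC stayed under 0.1 CPM (read counts scaled to the size of each library with TMM factors) on average in all of the 24 h groups examined. The epithelial markers KRT8 and KRT18 were present at over 100 CPM, but EPCAM and CDH1, which define most epithelial carcinomas, were under 0.3 CPM in those groups, while the mesenchymal gene VIM averaged 2432 CPM or more. Of 4 fibroblast and endothelial markers VWF rose by 1.69 and COL1A1 fell by 1.53 on the log2 scale with wild type p53 at 24 h, both under 2 CPM on average, and their part in the Wnt results was not tested.

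Of the 47 genes, 35 had enough counts to be tested, and the remaining 12 were close to silent in every group. The 12 were the ligands WNT1, WNT2, WNT3A, WNT5A, WNT6, WNT8A, WNT8B and WNT9B, with FZD10, RNF43, DKK4 and SFRP5, and no library held more than 11 counts of any of them. That maximum belonged to WNT6, which was at 0 in all 6 h libraries and had a count in all 15 libraries of 24 h, at 0.0215 to 0.249 CPM. WNT3A and WNT1, the ligands most used to start canonical signalling, had at most 5 counts in a library. Levels of different genes were compared per kilobase of annotated exon. On that scale, with pGFP at 24 h, FZD6 led at 25.7 CPM per kb, followed by LRP6 at 11.3, LRP5 at 7.06, FZD1 at 5.95, AXIN1 at 4.88 and WNT5B at 4.74. The most abundant ligands after WNT5B were WNT3 at 2.24 and WNT10B at 1.04 CPM per kb, and DKK3 was the most abundant antagonist at 3.35. Of the 4 nuclear factors TCF7L2 stood highest at 1.85, LEF1 at 1.06, TCF7 at 0.773 and TCF7L1 at 0.250 CPM per kb.

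Wild type p53 against pGFP asks which of these genes respond to p53. At 24 h 20 of the 35 tested genes passed an adjusted P of 0.05 by edgeR's quasi-likelihood test, 13 higher and 7 lower, where 35% of all 21335 tested genes passed (20.5% higher and 14.5% lower). At least a 2-fold rise was seen for 9 of the 35, against 9.22% of all tested genes, and a 2-fold fall for 2, against 1.99%. At 6 h 11 passed, 8 higher and 3 lower, where 10.3% of all tested genes passed (8.68% higher and 1.59% lower). Of these 7 rose at least 2-fold, against 4.39% of all, and none fell 2-fold, against 0.0937%. The median log2 change of the 35 at 24 h was 0.13, against 0.01 over all tested genes. The genes that moved most were ligands and antagonists that stood near zero without p53, while the Frizzled receptors changed by less than 2-fold. WNT11, WNT7A, WNT7B, SFRP2 and SFRP4 had at most 5 counts in any pGFP or RW mutant library and passed the filter on low counts through the other groups, so a rise of these 5 was set by the filter and the counts of rises over the 35 are a description only. With at least 10 counts required in every library, 27 genes were left, of which 6 were higher and 7 lower at 24 h, where 42.4% of all genes so filtered passed, and 1 higher and 3 lower at 6 h, where 11% did. With the replicate number as a block, which the 24 h libraries share, 24 genes passed at 24 h, 15 higher and 9 lower, where 48.4% of all did. All 20 genes called without the block were among them.

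**Figure D1:**
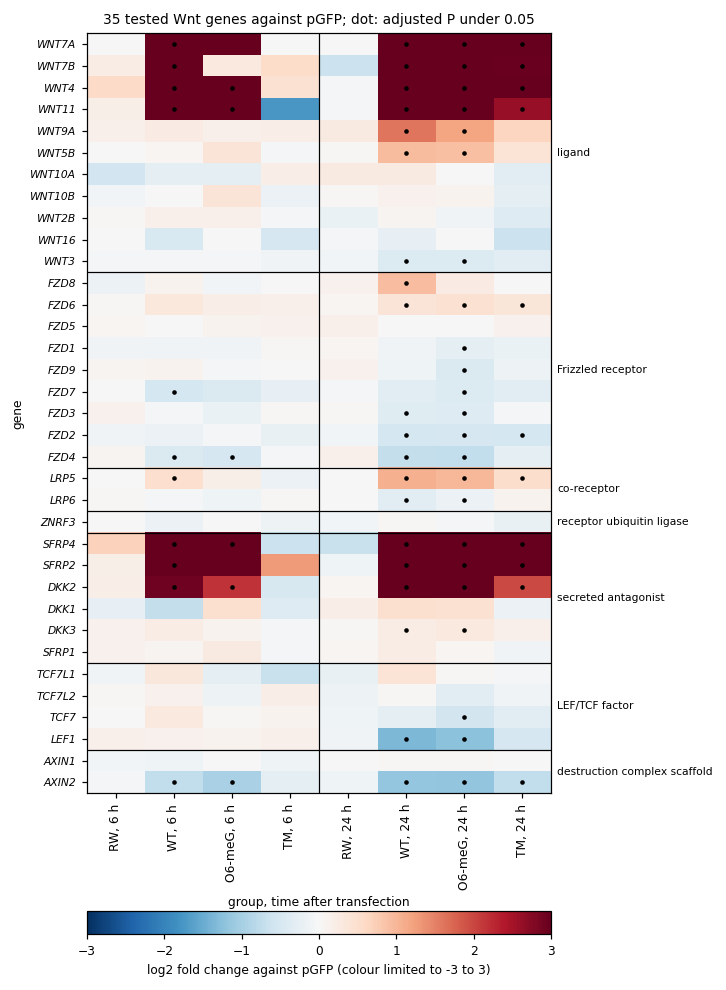
Fitted log2 fold change against pGFP (colour, limited to -3 to 3) of the 35 tested Wnt genes (rows, grouped by role) with each p53 vector at 6 h and 24 h (columns), where a dot marks an adjusted P under 0.05. The columns of RW mutant p53 hold no dot, and the dark red rows are WNT7A, WNT7B, WNT4 and WNT11 among the ligands and SFRP4, SFRP2 and DKK2 among the antagonists.

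Of the 11 tested ligands 6 rose with wild type p53 at 24 h and 1 fell. WNT4 (ENSG00000162552.14, chromosome 1, 22117313 to 22143969 of hg38), a ligand known for its roles in kidney and gonad development, was at 0.372, 0.181 and 0.184 CPM in the pGFP libraries and at 10.7, 9.40 and 5.69 with wild type p53. The groups did not overlap, and the log2 change of 5.15 (SE 0.37) had an edgeR adjusted P of 5.38e-11. The summed counts, 1107 against 30, give a ratio of 36.0 with an exact 95% interval of 25.04 to 53.6 that covers counting error only. At 6 h WNT4 already stood at 1.99, 1.82 and 2.08 CPM against 0.0608, 0.0656 and 0.0871, a log2 change of 4.72 (SE 0.45, adjusted P = 2.52e-08).

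WNT11 (ENSG00000085741.12, chromosome 11, 76186325 to 76210736), which acts mostly outside the beta-catenin branch, had 0.133, 0.0453 and 0.0918 CPM with pGFP and 3.62, 3.16 and 2.42 with wild type p53 at 24 h. The ratio of summed counts was 34.9 (95% interval 19.3 to 70.5; log2 change 5.08, SE 0.33, edgeR adjusted P = 2.48e-11). WNT7A (ENSG00000154764.5, chromosome 3, 13816258 to 13880071) had no count in any pGFP or RW mutant library at either time. With wild type p53 it reached 1.27, 1.14 and 1.04 CPM at 24 h, at least 48.1-fold higher than pGFP when the absent reads are set to 3 counts over the group. At 6 h the 15 counts in the wild type libraries give at least a 4.94-fold rise. WNT7B (ENSG00000188064.9, chromosome 22, 45920366 to 45977162), the closest relative of WNT7A and a ligand of lung development, was at 0.0266, 0 and 0.0459 CPM with pGFP and at 1.62, 1.85 and 1.59 with wild type p53, a ratio of 70.8 (95% interval 23.9 to 346). These 4 ligands therefore went from a few reads per library to levels still below those of WNT5B.

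WNT5B (ENSG00000111186.12, chromosome 12, 1529891 to 1647212), a ligand best known from non-canonical signalling, was the most abundant ligand per kilobase with pGFP at both times and with wild type p53 at 24 h. At 24 h it was at 15.6, 22.4 and 22.2 CPM with pGFP and at 36.8, 43.6 and 35.8 with wild type p53, groups that did not overlap (log2 change 0.94, SE 0.14, edgeR adjusted P = 8.74e-06). WNT9A (ENSG00000143816.7, chromosome 1, 227918656 to 227947932) was at 0.690, 0.883 and 1.24 CPM with pGFP and at 2.87, 3.34 and 2.37 with wild type p53 (log2 change 1.60, SE 0.20, adjusted P = 5.95e-07). Neither passed at 6 h, where the levels of the 2 groups were alike: 35.8 to 38.1 against 36.7 to 40.1 CPM for WNT5B, and 1.68 to 2.07 against 2.07 to 2.21 for WNT9A. The change of the difference from 6 h to 24 h was itself past the threshold for WNT5B (0.88, SE 0.20, edgeR adjusted P = 0.00813) and WNT9A (1.36, SE 0.28, adjusted P = 0.00365). Of the 35 genes 3 passed this test, where 6.51% of all tested genes did (3.73% higher and 2.77% lower), and 8 passed with the replicate number as a block, where 18.3% of all did (the added genes were TCF7, LRP5, LRP6, WNT3 and DKK1).

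WNT3 (ENSG00000108379.9), a canonical ligand, was the ligand that fell at 24 h, from 10.4, 12.5 and 13.4 CPM to 7.17, 9.04 and 11.3 (log2 change -0.40, SE 0.13, edgeR adjusted P = 0.0154). The 2 groups overlapped, but WNT3 was lower with wild type p53 within each replicate number, and the call held with the number as a block. The call did not hold without replicate 1 of wild type p53 (adjusted P = 0.0794), without replicate 3 of pGFP (0.0870) or in a fit of those groups alone (0.0923). WNT10A, WNT10B, WNT2B and WNT16 did not pass at either time, at log2 changes of -0.26 to 0.28 at 24 h. WNT2B shares 2598 bases of exon with ST7L on the opposite strand, and as it is not known whether reads were counted by strand, its counts are uncertain.

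**Figure D2:**
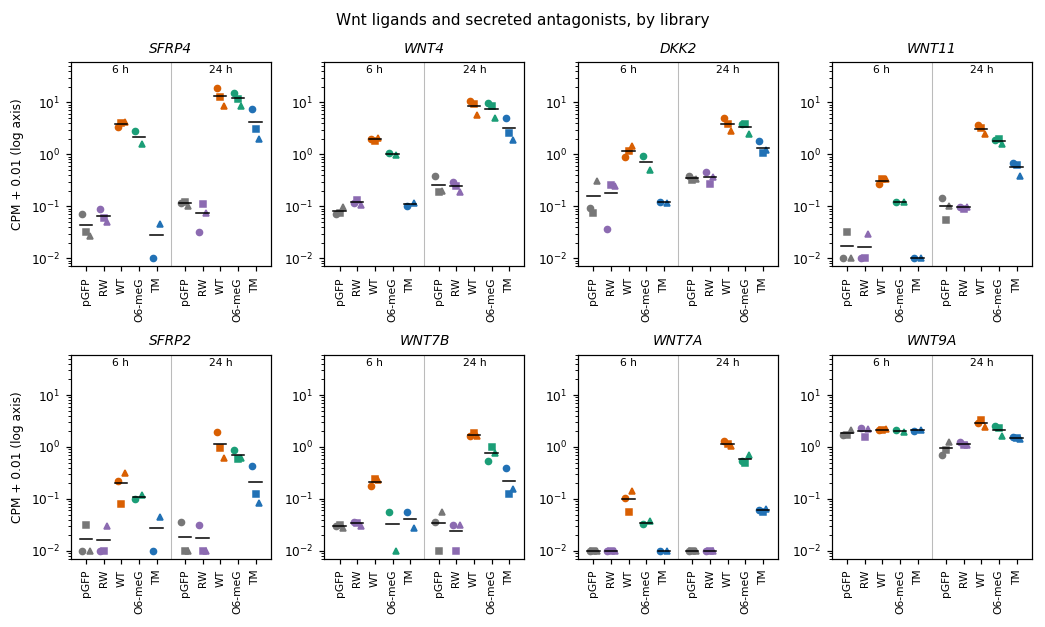
CPM plus 0.01 (log axis) of 8 Wnt ligands and secreted antagonists in each grouped library (circle, square and triangle for replicates 1, 2 and 3; lines are group means) by vector at 6 h (left) and 24 h (right). SFRP4 with wild type p53 at 24 h lies between 8.40 and 18.5 CPM, and the RW mutant libraries stay at the pGFP level while those of p53 TM at 24 h lie between those of pGFP and wild type p53 for all 8 genes.

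Of the 6 tested antagonists 4 rose with wild type p53 at 24 h and none fell. SFRP4 (ENSG00000106483.11, chromosome 7, 37905932 to 38025695), a secreted protein that binds Wnt ligands, had 0.106, 0.113 and 0.0918 CPM with pGFP and 18.5, 12.95 and 8.40 with wild type p53. The summed counts of 1698 and 13 give a ratio of 127 (95% interval 74.2 to 240; log2 change 6.96, SE 0.52, edgeR adjusted P = 1.06e-10). Per kilobase SFRP4 stood at 3.79 CPM with wild type p53, beside DKK3 at 3.93, whereas with pGFP it stood at 0.030. At 6 h it was at 3.38, 4.03 and 4.13 CPM with wild type p53 against 0.0608, 0.0219 and 0.0174.

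SFRP2 (ENSG00000145423.4, chromosome 4, 153780591 to 153789083), of the same family, had 1 count over the 3 pGFP libraries of 24 h and 146 over those of wild type p53, which were at 1.92, 0.947 and 0.593 CPM. The ratio of 142 has a 95% interval of 25.1 to 5658, so its size is poorly known (log2 change 6.74, SE 0.88, edgeR adjusted P = 1.04e-06). DKK2 (ENSG00000155011.8, chromosome 4, 106921802 to 107283806), a ligand of LRP5 and LRP6 that inhibits or, in some settings, activates signalling, was at 0.372, 0.317 and 0.321 CPM with pGFP and at 4.90, 3.92 and 2.82 with wild type p53 (log2 change 3.52, SE 0.38, adjusted P = 4.60e-08). All 3 of these antagonists had passed at 6 h as well, SFRP2 with an adjusted P of 0.00605 that became 0.0604 without replicate 3 of wild type p53.

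DKK3, a family member that does not bind LRP co-receptors in the usual way, was at 37.4, 42.9 and 39.6 CPM with pGFP and 44.5, 51.0 and 45.5 with wild type p53. Its edgeR adjusted P of 0.0499 (log2 change 0.23, SE 0.09) was lost in most alternative fits. The call held with the replicate number as a block, and DKK3 was higher with wild type p53 within each number. Of its exons 5681 bases lie opposite USP47, which fell by 0.28 on the log2 scale. DKK1, the LRP5 and LRP6 inhibitor that beta-catenin induces, did not pass at either time. At 6 h it was at 3.32, 3.43 and 3.73 CPM with pGFP and 1.76, 2.00 and 2.60 with wild type p53, groups that did not overlap. The log2 change of -0.71 had an adjusted P of 0.595 by edgeR over all groups and passed in a fit of the 2 groups alone (0.00338). At 24 h its replicate 1 was the lowest in every group, at 1.20 to 2.07 CPM, while replicates 2 and 3 were at 4.36 to 7.07. With the replicate number as a block, which the 24 h libraries share, DKK1 was lower with p53 TM than with wild type p53 (log2 change -0.66, adjusted P = 0.0143), against an adjusted P of 0.452 without the block. SFRP1 stood at 10.3 to 12.6 CPM with pGFP and 12.5 to 14.2 with wild type p53, and passed with the block (adjusted P = 0.0111) but not without it (0.158).

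**Figure D3:**
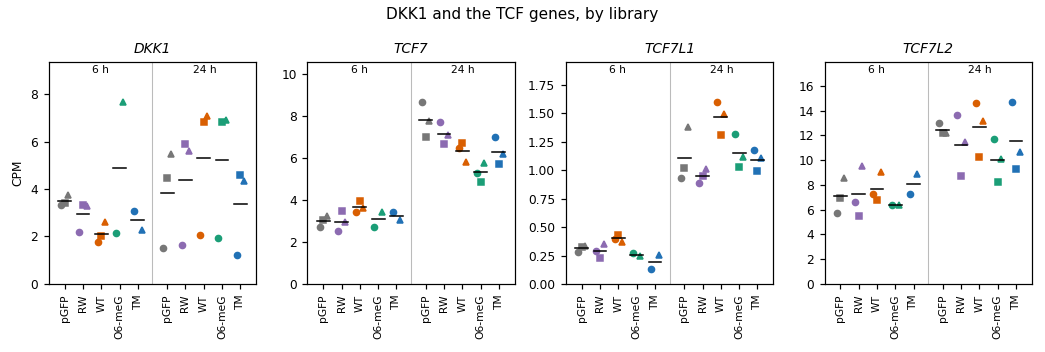
CPM of DKK1 and of 3 LEF/TCF factors in each grouped library by vector at 6 h and 24 h, with a symbol for each replicate number (circle, square and triangle for 1, 2 and 3) and lines for group means. The circles of DKK1 at 24 h lie at 1.20 to 2.07 CPM in all vectors, below all squares and triangles at that time.

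The sequences upstream of 4 of the 7 genes that rose from near zero are shown because these genes moved together, with that of LEF1, which fell, for contrast. Each is the 250 bases before the gene start given by RefSeq on GRCh38.p14, written 5′ to 3′ on the strand of the gene, and capitals mark the 20 bases closest to the p53 response element.
WNT4: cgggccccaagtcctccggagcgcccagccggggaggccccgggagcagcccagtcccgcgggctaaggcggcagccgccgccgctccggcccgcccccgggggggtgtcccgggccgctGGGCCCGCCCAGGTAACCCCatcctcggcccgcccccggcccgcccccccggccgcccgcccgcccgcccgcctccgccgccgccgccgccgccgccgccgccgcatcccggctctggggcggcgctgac
WNT7A: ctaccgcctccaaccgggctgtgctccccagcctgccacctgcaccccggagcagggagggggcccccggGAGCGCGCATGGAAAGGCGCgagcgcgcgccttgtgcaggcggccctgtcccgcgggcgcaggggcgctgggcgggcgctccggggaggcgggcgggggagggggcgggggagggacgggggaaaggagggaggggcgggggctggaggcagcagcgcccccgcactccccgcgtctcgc
SFRP2: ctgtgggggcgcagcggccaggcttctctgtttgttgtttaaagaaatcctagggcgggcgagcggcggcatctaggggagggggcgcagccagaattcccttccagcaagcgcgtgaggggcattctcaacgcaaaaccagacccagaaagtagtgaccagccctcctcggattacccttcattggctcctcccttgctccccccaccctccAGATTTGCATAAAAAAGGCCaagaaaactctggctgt
SFRP4: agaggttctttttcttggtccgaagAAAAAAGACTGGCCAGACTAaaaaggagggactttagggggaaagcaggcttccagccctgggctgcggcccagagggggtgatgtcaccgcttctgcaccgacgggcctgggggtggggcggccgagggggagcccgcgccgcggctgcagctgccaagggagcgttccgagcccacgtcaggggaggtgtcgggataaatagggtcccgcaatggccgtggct
LEF1: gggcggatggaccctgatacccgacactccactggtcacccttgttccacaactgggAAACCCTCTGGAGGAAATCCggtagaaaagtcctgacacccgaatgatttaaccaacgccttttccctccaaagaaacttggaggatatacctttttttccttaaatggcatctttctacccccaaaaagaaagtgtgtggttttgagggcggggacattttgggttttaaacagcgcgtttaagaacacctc
The windows are chr1:22143098-22143347, chr3:13880072-13880321, chr4:153789084-153789333, chr7:37916818-37917067 and chr4:108166302-108166551, all on the minus strand. The window of SFRP4 and those of WNT4 and LEF1 lie inside the longer gene models of GENCODE. The p53 response element, a pair of adjoining decamers, was matched by the capitals with 4 mismatches in WNT4 and SFRP2 and with 6 in WNT7A, SFRP4 and LEF1. A match with 4 or fewer mismatches was held by 22.2% of 34941 windows of all genes, and one with 6 or fewer by 95.7%. Of the 47 genes 32 had a window, in 39 windows, and none held a match with 3 or fewer mismatches, against 4.36% of all windows. The letters CTTTGAT, the core motif of LEF/TCF binding, were searched on both strands and found in the window of none of the 32, against 2.27% of all. GC content differed widely between the windows shown, from 47.6% in LEF1 and 57.6% in SFRP2 to 64.4% in SFRP4, 80.4% in WNT7A and 86.8% in WNT4. WNT11, WNT7B, DKK2 and AXIN2 were not in the table of windows.

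Among the receptors the co-receptor LRP5 changed most. LRP5 (ENSG00000162337.11, chromosome 11, 68312591 to 68449275) was at 38.3, 47.5 and 45.1 CPM with pGFP and at 95.9, 98.8 and 80.8 with wild type p53 at 24 h, a 2.10-fold rise (log2 change 1.07, SE 0.13, edgeR adjusted P = 1.98e-07). At 6 h it was at 42.7, 44.5 and 38.0 against 61.6, 57.2 and 59.7 CPM (log2 change 0.51, SE 0.13, adjusted P = 0.00666, or 0.0535 without replicate 3 of pGFP). LRP6, its partner gene in the same role, went the other way at 24 h, from 125, 112 and 113 CPM to 95.7, 94.1 and 93.5 (log2 change -0.31, SE 0.07, adjusted P = 0.000745). Per kilobase the order of the 2 co-receptors was therefore exchanged, with LRP6 at 11.3 and LRP5 at 7.06 CPM per kb with pGFP and LRP6 at 9.11 and LRP5 at 14.9 with wild type p53.

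Of the 9 tested Frizzled receptors 2 rose and 3 fell at 24 h. FZD8 was at 0.770, 0.861 and 0.987 CPM with pGFP and at 1.499, 2.07 and 1.45 with wild type p53 (log2 change 0.93, SE 0.26, edgeR adjusted P = 0.00541). FZD6, the most abundant receptor and one that acts mainly outside the beta-catenin branch, was at 108, 107 and 97.9 against 152, 137 and 121 CPM (log2 change 0.39, SE 0.10, adjusted P = 0.0041), a call lost without replicate 1 of wild type p53 (0.0663). FZD6 shares 138 exonic bases with BAALC-AS1 on the opposite strand, which rose by 1.23.

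FZD4 (ENSG00000174804.3, chromosome 11, 86945679 to 86955395), the receptor of Norrin as well as of Wnt ligands, fell from 8.07, 9.15 and 8.998 CPM to 4.67, 5.27 and 5.98 (log2 change -0.72, SE 0.13, edgeR adjusted P = 5.97e-05). It shares 1255 exonic bases with PRSS23 on the opposite strand, whose counts rose by 1.55 on the log2 scale (SE 0.11), so reads of the 2 genes did not move together. FZD3 fell from 22.1 to 23.4 CPM with pGFP to 17.7 to 18.3 (log2 change -0.35, adjusted P = 0.00229), and FZD2 from 11.0, 12.6 and 12.8 to 6.15, 9.64 and 9.49 (-0.53, adjusted P = 0.0138, or 0.0770 without replicate 1 of wild type p53). At 6 h FZD4 was at 10.6, 10.6 and 11.7 CPM with pGFP and 7.24, 8.02 and 8.98 with wild type p53, and FZD7 at 6.97, 6.14 and 7.93 against 4.55, 4.71 and 5.24. Both passed (adjusted P of 0.018 and 0.0158) with groups that did not overlap, but both calls were lost without replicate 1 or 2 of wild type p53 or replicate 3 of pGFP. FZD1, FZD5 and FZD9 did not pass at either time. With the replicate block FZD7 also passed at 24 h (log2 change -0.34, adjusted P = 0.00465).

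Below the receptors, AXIN2 and LEF1 were the only genes of the 35 to fall at least 2-fold with wild type p53 at 24 h. AXIN2 (ENSG00000168646.12, chromosome 17, 65528563 to 65561648), a scaffold of the destruction complex and a feedback inhibitor, fell from 6.19, 4.92 and 5.30 CPM with pGFP to 2.52, 2.11 and 2.66 with wild type p53 at 24 h (log2 change -1.17, SE 0.15, edgeR adjusted P = 4.50e-07). The fall was present at 6 h, where pGFP was at 3.14, 3.12 and 3.07 CPM and wild type p53 at 1.57, 2.12 and 1.90 (log2 change -0.74, SE 0.15, adjusted P = 0.000987). The groups did not overlap at either time. AXIN1, its constitutive counterpart, stayed at 33.2 to 40.3 CPM in both groups at 24 h (log2 change 0.03, SE 0.10, adjusted P = 0.853).

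LEF1 (ENSG00000138795.9, chromosome 4, 108047545 to 108168956) fell only at the later time in this test. With pGFP it was at 7.20, 4.46 and 5.33 CPM at 24 h and with wild type p53 at 2.62, 1.94 and 2.16 (log2 change -1.34, SE 0.17, edgeR adjusted P = 7.80e-07). At 6 h the corresponding values were 2.71, 3.61 and 3.52 against 3.47, 3.46 and 3.85 CPM (log2 change 0.13, adjusted P = 0.795). The difference between the times, -1.47 (SE 0.24), passed with an adjusted P of 5.95e-04. TCF7, TCF7L1 and TCF7L2 did not pass at either time. At 24 h TCF7 was at 8.66, 6.98 and 7.76 CPM with pGFP and 6.45, 6.69 and 5.81 with wild type p53, and TCF7L1 at 0.929, 1.02 and 1.38 against 1.60, 1.31 and 1.49. TCF7L2, the most abundant of the 4, overlapped fully, at 12.2 to 13.04 against 10.3 to 14.6 CPM. With the replicate block at 24 h TCF7 was lower (log2 change -0.30, adjusted P = 0.0132) and TCF7L1 higher (0.40, adjusted P = 0.0488). ZNRF3 was at 9.45 to 11.7 CPM in the 6 libraries of both groups (adjusted P = 0.857).

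**Figure D4:**
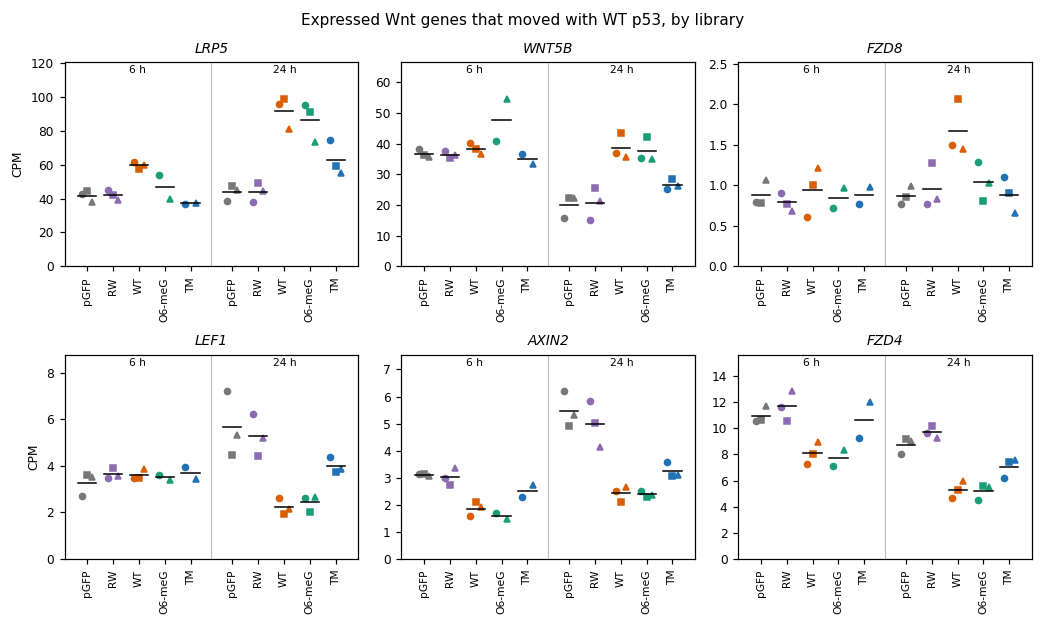
CPM (linear axis from 0) of LRP5, WNT5B, FZD8, LEF1, AXIN2 and FZD4 in each grouped library by vector at 6 h (left) and 24 h (right), with symbols for replicate numbers (circle, square and triangle for 1, 2 and 3) and lines for group means. LEF1 with pGFP rises from 2.71 to 3.61 CPM at 6 h to 4.46 to 7.20 at 24 h while wild type p53 ends at 1.94 to 2.62, and WNT5B falls with time in pGFP but not with wild type p53.

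Time alone moved many of these genes in cells without active p53. Between 6 h and 24 h 18 of the 35 passed with pGFP, 11 higher and 7 lower, where 41.2% of all tested genes passed (19% higher and 22.3% lower). LEF1, AXIN2, TCF7, TCF7L1, TCF7L2, FZD2 and FZD7 were higher at 24 h, with TCF7 at 2.69 to 3.24 and then 6.98 to 8.66 CPM (log2 change 1.38, SE 0.13, edgeR adjusted P = 1.96e-08). WNT5B and WNT9A were lower, with log2 changes of -0.87 (adjusted P = 3.31e-05) and -0.94 (0.000661). RW mutant p53 gave 18 calls between the times as well, 12 higher and 6 lower, where 40.1% of all passed (18.8% higher and 21.2% lower), with log2 changes of 1.27 for TCF7, -0.81 for WNT5B and -0.84 for WNT9A. For WNT5B, WNT9A and LEF1 the difference between wild type p53 and pGFP at 24 h was thus measured against a pGFP level that had itself changed since 6 h. The same held for AXIN2, LRP6, FZD2, WNT4 and WNT11, whose pGFP level was higher at 24 h, with WNT4 and WNT11 on few counts. It held as well for WNT3, FZD3 and FZD4, whose pGFP level was lower. Genes of the cell cycle shifted as well: of 10 G1/S and mitotic genes, all 10 were lower with wild type p53 at 24 h and 1 at 6 h, and 6 were lower at 24 h than at 6 h with pGFP. Of all tested genes 14.5%, 1.59% and 22.3% were lower in these comparisons. The part of the cell cycle in the Wnt results was not tested.

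RW mutant p53 against pGFP changed none of the 35 genes at 6 h or 24 h by edgeR. At an unadjusted P of 0.05 there were 0 at 6 h and 1 at 24 h (FZD5, log2 change 0.16), DESeq2 called 0 at both times, and 0.00469% of all tested genes passed at each time. WNT4 with RW mutant p53 at 24 h was at 0.288, 0.242 and 0.176 CPM, SFRP4 at 0.0221, 0.101 and 0.0658, LEF1 at 6.22, 4.41 and 5.18 and AXIN2 at 5.85, 5.03 and 4.13, each overlapping the pGFP libraries. For summed counts of WNT4 the ratio to pGFP was 0.982 with a 95% interval of 0.581 to 1.67. Wild type p53 against the RW mutant gave 20 calls at 24 h, 13 higher and 7 lower, where 35.6% of all tested genes passed (20.2% higher and 15.4% lower). At 6 h it gave 11, 8 higher and 3 lower, where 9.94% of all passed (8.52% higher and 1.42% lower). A rise of WNT11, WNT7A, WNT7B, SFRP2 and SFRP4 over the RW mutant was set by the filter on low counts. The counts of rises over the RW mutant are therefore a description only. At 24 h TCF7L1 passed in that comparison (log2 change 0.63, adjusted P = 0.00965) and DKK3 did not. Both comparisons use the same wild type libraries.

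With p53 O6-meG and active AGT, 23 of the 35 genes passed against pGFP at 24 h, 12 higher and 11 lower, where 29.5% of all tested genes passed (18.1% higher and 11.3% lower). A rise of WNT11, WNT7A, WNT7B, SFRP2 and SFRP4 over pGFP was again set by the filter on low counts. The counts of rises with p53 O6-meG at 24 h and 6 h are therefore a description only. SFRP4 was at 15.5, 11.8 and 8.47 CPM, WNT4 at 9.52, 8.34 and 4.92, LRP5 at 95.4, 90.9 and 73.2, LEF1 at 2.64, 2.01 and 2.66 and AXIN2 at 2.52, 2.28 and 2.38, each overlapping the wild type p53 libraries. The additional falls were TCF7 (log2 change -0.56, edgeR adjusted P = 0.0015), FZD9 (-0.43, 0.00675), FZD7 (-0.42, 0.0229) and FZD1 (-0.30, 0.00169). At 6 h 6 genes passed, where 4.85% of all did (4.32% higher and 0.53% lower): SFRP4, WNT4, WNT11 and DKK2 were higher and AXIN2 and FZD4 lower. In the 2 libraries of that group SFRP4 was at 2.77 and 1.57 CPM, WNT4 at 1.06 and 0.962 and AXIN2 at 1.69 and 1.48. All 6 calls held when the 2 unassigned libraries were assigned by what their titles name first and were lost when they were assigned by genotype field. CDKN1A was at 269 and 261 CPM with p53 O6-meG at 6 h and at 65.9 and 57.9 with p53 TM, and at 250 CPM in the unassigned library whose genotype field names p53 TM and 50.2 in that whose field names p53 O6-meG. Directly against wild type p53 no Wnt gene passed at either time by edgeR or DESeq2, with 6 and 7 at an unadjusted P of 0.05 and with 0% and 0.00937% of all tested genes passing. The lowest of these at 24 h were WNT7B, at 0.527, 1.00 and 0.744 CPM against 1.62, 1.85 and 1.59, and WNT7A, at 0.527, 0.491 and 0.687 against 1.27, 1.14 and 1.04, with no overlap of the groups. WNT11 lay at 1.90, 1.98 and 1.55 against 3.62, 3.16 and 2.42. With the replicate block at 24 h WNT7B (log2 change -1.13, adjusted P = 0.0339) and WNT11 (-0.75, 0.0257) passed.

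p53 TM asks what remains of these changes when part of the p53 transcripts is miscoded. Against pGFP no Wnt gene passed at 6 h by edgeR or DESeq2, with 0 at an unadjusted P of 0.05 and 0.202% of all tested genes passing, over 2 replicates of p53 TM. SFRP4 was at 0 and 0.0358 CPM in those libraries, WNT4 at 0.0904 and 0.107, DKK2 at 0.113 and 0.107 and AXIN2 at 2.30 and 2.74. Against wild type p53 at 6 h 8 genes were lower, where 10.9% of all tested genes passed (2.77% higher and 8.14% lower): SFRP4, WNT11, WNT7A, WNT4, DKK2, WNT7B, LRP5 and TCF7L1. WNT11 had no count in p53 TM and was at least 10.2-fold lower, and LRP5 was at 37.0 and 37.3 CPM against 57.2 to 61.6. SFRP4, WNT11, WNT7A, WNT4, DKK2 and WNT7B had at most 6 counts in a p53 TM library of 6 h. They passed the filter on low counts through other groups, so the count of falls is a description only. These 8 calls too held by what the titles name first and were lost by genotype field. The TCF7L1 call (edgeR adjusted P = 0.0490) was also lost in 17 of 28 fits with a library left out and in 5 of 7 alternatives.

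At 24 h p53 TM differed from pGFP in 11 genes, 9 higher and 2 lower, where 10.7% of all tested genes passed (9% higher and 1.68% lower). A rise of WNT11, WNT7A, WNT7B, SFRP2 and SFRP4 over pGFP was again set by the filter on low counts, so the count of rises is a description only. With the replicate block, which the 24 h libraries share, the count was 20, 11 higher and 9 lower, where 21.7% of all tested genes passed, with LEF1 among the added falls (log2 change -0.48, adjusted P = 0.00134, against 0.0521 without the block). SFRP4 was at 7.46, 3.12 and 1.98 CPM, WNT4 at 5.06, 2.61 and 1.87, DKK2 at 1.78, 1.06 and 1.18, WNT11 at 0.676, 0.625 and 0.381 and WNT7B at 0.376, 0.116 and 0.145, all above all 3 pGFP libraries. The calls of LRP5, SFRP2, WNT7A, FZD6 and FZD2 did not hold without replicate 1 of p53 TM, with adjusted P of 0.0755, 0.170, 0.0592, 0.187 and 0.189. In SFRP4, WNT4, DKK2 and LRP5 that replicate lay above the other two of its group.

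Against wild type p53 at 24 h 18 genes differed, 13 lower and 5 higher with p53 TM, where 21.2% of all tested genes passed (9.29% higher and 11.9% lower), and 7 were lower by at least 2-fold, against 4.07% of all. With the replicate block 22 passed, 5 higher and 17 lower, where 37% of all did, and SFRP1 (adjusted P = 0.000648, against 0.0502 without the block), ZNRF3 (0.0207), TCF7L1 (0.0401) and DKK1 were added. SFRP1 was at 9.89, 11.4 and 10.6 CPM with p53 TM and at 12.5, 14.2 and 13.4 with wild type p53, without overlap. The 7 genes lower by at least 2-fold were WNT7A, WNT7B, WNT11, WNT4, SFRP2, SFRP4 and DKK2. Of these WNT7A (2, 2 and 3 counts), WNT7B (15, 5 and 8) and SFRP2 (17, 5 and 4) had few reads with p53 TM. They passed the filter on low counts through other groups, so their fall was set by the filter. The count of 7 is a description only. WNT7A showed the lowest log2 value, -4.44 (SE 0.38, edgeR adjusted P = 1.65e-06), with 7 counts over the 3 p53 TM libraries and 148 over those of wild type p53. For SFRP4 the log2 difference of -1.68 passed (adjusted P = 0.000664) but did not in a fit of the 2 groups alone (0.0617) or with the 2 unassigned libraries placed by their genotype field (0.0952). LEF1 was higher with p53 TM, at 4.38, 3.73 and 3.89 CPM against 2.62, 1.94 and 2.16 (log2 difference 0.84, SE 0.17, adjusted P = 0.00111), and stayed below all 3 pGFP libraries, at 4.46 to 7.20. LRP6 was at 133, 124 and 119 CPM against 93.5 to 95.7 (0.41, adjusted P = 0.000132). AXIN2 was at 3.58, 3.08 and 3.10 CPM, between the other two groups, and its difference from wild type p53 of 0.42 (adjusted P = 0.0427) was lost in several alternative fits (up to 0.186). The calls of FZD3, FZD4, FZD8, WNT2B and WNT10B were likewise lost in a fit of the 2 groups alone.

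The rise that remained was expressed as the mean excess over pGFP in percent of that of wild type p53, for the 9 genes that rose at least 2-fold with wild type p53. These genes were selected by the wild type libraries, which also form the denominator. With p53 TM at 24 h LRP5 kept 39.8%, WNT4 35.1%, SFRP4 31.0%, DKK2 28.3% and WNT9A 27.7%, where the 1967 genes that rose 2-fold with wild type p53 kept a median of 33.8% with quartiles of 18.3% and 49.9%. SFRP2 kept 17.1%, WNT11 15.8%, WNT7B 11.3% and WNT7A 4.36%, below the lower quartile. Each p53 TM replicate was set against the group means of pGFP and wild type p53, not paired by replicate number. On that scale WNT4 spread from 19.4% to 57.5% and SFRP4 from 14.2% to 55.8%, ranges that hold the median of all genes. Replicate 1 was the highest of both genes with wild type p53 as well, and the share kept within each number was not tested. WNT7A lay between 4.01% and 4.72%, but on 2, 2 and 3 counts, so the narrow range is no measure of its precision. With p53 O6-meG the same genes kept 44.1% (WNT7B) to 89.5% (SFRP4), with a median of 79.7% over the 1967 genes. WNT7B, WNT7A and WNT11 thus stood lowest of the 9 in both groups, which share the pGFP and wild type libraries.

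**Figure D5:**
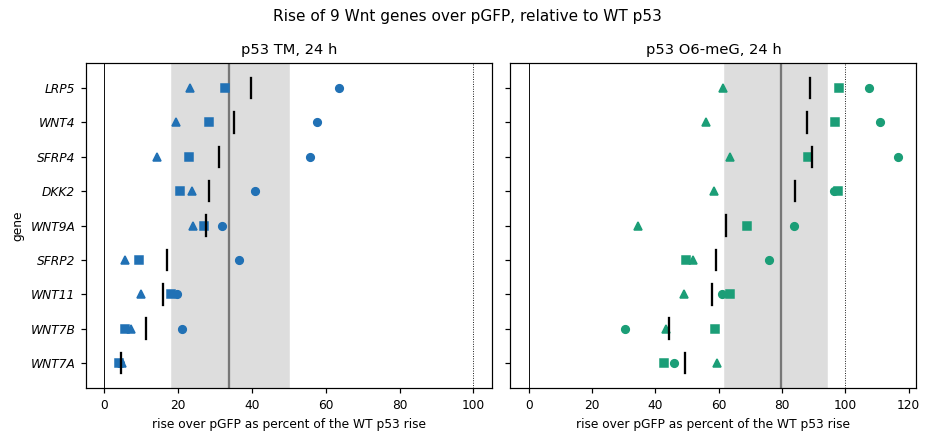
Rise over the pGFP mean as percent of the mean rise with wild type p53 at 24 h, for 9 Wnt genes with p53 TM (left) and p53 O6-meG (right), with a symbol per replicate (circle, square and triangle for 1, 2 and 3) and a bar for the mean. The vertical line and grey band mark the median and quartiles of the 1967 genes that rose 2-fold with wild type p53, 33.8% (18.3% to 49.9%) for p53 TM. WNT7A with p53 TM lies at 4.01% to 4.72%, on 2, 2 and 3 counts. Each replicate is set against group means.

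Between p53 TM and p53 O6-meG, which differ in the O6-bzG treatment, 13 genes passed at 24 h, 4 higher and 9 lower with p53 TM, where 10% of all tested genes passed (3.47% higher and 6.58% lower). The 9 were the same 7 ligands and antagonists with WNT5B and LRP5, and the 4 were LEF1, LRP6, FZD3 and FZD4. For WNT7A, WNT7B and SFRP2 a fall was again set by the filter, so the count of 9 is a description only. With the replicate block, which the 24 h libraries share, 18 passed, 6 higher and 12 lower, where 25.3% of all did. These were the 13 with AXIN2, FZD9, WNT10B, WNT9A and DKK1 added. Without the block, a fit of the 2 groups alone called 2 of the 35, where 1.29% of all passed, and LEF1, LRP6, FZD3, FZD4, WNT5B, LRP5, WNT4, WNT7B, DKK2, SFRP2 and SFRP4 were lost in it. Without replicate 3 of p53 TM 7 genes passed. At 6 h 5 passed, where 4.1% of all did (0.731% higher and 3.37% lower): SFRP4, WNT11, WNT4 and DKK2 were lower with p53 TM and AXIN2 higher. The 4 lower genes had at most 6 counts in a p53 TM library of 6 h and passed the filter through other groups. The AXIN2 call (edgeR adjusted P = 0.0442) was lost in 12 of 28 fits with a library left out and in 3 of 8 alternatives. A group with O6-bzG and another vector was not analysed here, so the treatment and the miscoding cannot be told apart in this comparison.

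The remaining genes of the pathway are given by lists. With wild type p53 at 24 h 20.5% of all tested genes rose and 14.5% fell. Of 3 genes of Wnt secretion 1 passed with wild type p53 at 24 h: PORCN, the acyltransferase that lipidates Wnt ligands, was at 35.4 CPM on average against 6.33 with pGFP (log2 change 2.48, SE 0.21, edgeR adjusted P = 9.50e-10) and at 16.3 CPM with p53 TM. Of 10 tested genes of other co-receptors and the R-spondin axis 4 rose and 1 fell, with KREMEN2, a DKK receptor (2.44), ROR1 and RYK, receptors of non-canonical Wnt ligands (1.44 and 0.50), and LGR6, an R-spondin receptor (3.86, from 0.0254 to 0.384 CPM). LGR6 had at most 25 counts in a library and passed the filter on low counts through groups other than pGFP. Its rise was therefore set by the filter, and the count of 4 is a description only. Of 4 other secreted or surface inhibitors TPBG (-1.09) and WIF1 (-0.99) fell and none rose. Of 18 Dishevelled and destruction complex genes 10 rose and 2 fell, a median log2 change of 0.21 against 0.01 over all tested genes, of which 20.5% rose and 14.5% fell. AMER1, which recruits AXIN to the membrane, rose by 2.40, APC2 by 1.23 and the kinase GSK3B by 0.87, and the Dishevelled inhibitor NKD1 fell by 1.66.

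Of 15 genes of beta-catenin and its nuclear partners 7 rose and 2 fell with wild type p53 at 24 h, with a median log2 change of 0.12. Of all tested genes 20.5% rose and 14.5% fell. HIC1, a repressor that p53 is known to induce, rose by 2.86 on the log2 scale, BCL9L by 1.39, PYGO1 by 0.88 and CTNNBIP1, which blocks the binding of beta-catenin to TCF, by 0.70. CTNNB1, which encodes beta-catenin and is named after its values were seen, was at 502 and 507 CPM on average (adjusted P = 0.881). Of 14 tested genes that beta-catenin often induces, which include LEF1, AXIN2, TCF7 and ZNRF3, 3 rose and 5 fell, with a median of -0.22. The shares of all tested genes are the same 20.5% and 14.5%. CD44 (0.64), EPHB2 (0.72) and CCND1 (0.40) rose while AXIN2, LEF1, NKD1 (-1.66), TNFRSF19 (-1.14) and SP5 (-1.09) fell. EPHB2, CCND1, TNFRSF19 and SP5 are named after their values were seen. With pGFP 10 of the 14 were higher at 24 h than at 6 h and 2 were lower, where 19% of all tested genes were higher and 22.3% lower.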

How the data were processed

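Bulk RNA-seq libraries of GFP-sorted H1299 cells (a stranded kit, 15 PCR cycles without molecular identifiers, single reads) were aligned by the authors with STAR 2.5.3a to hg38 and counted over GENCODE v27 genes with featureCounts of Subread 1.5.2; the strand setting is not given in the sources used here. The deposited table of raw counts was used, and the table the authors normalized with DESeq2 1.20 was not. Symbols and coordinates came from GENCODE v44 on hg38, which held 38904 of 39359 gene IDs. Genes passed edgeR's filterByExpr (minimum count 10, total 15) at 21335 of 39359, and 28 libraries in 10 groups were fitted with edgeR 4.0.16 in R 4.3.3 by the quasi-likelihood test with TMM scaling, without a replicate block, and with Benjamini-Hochberg adjustment over all tested genes. A call is an adjusted P under 0.05. Ratios of summed counts carry exact 95% intervals for counting error only, and a group at 0 was set to 3 counts over the group.

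The 2 libraries with conflicting labels were left out of the groups. Same-numbered libraries deviated together at 24 h in all 30 pairs (correlations 0.428 to 0.879), so the numbers pair them there, but in 18 of 23 pairs at 6 h (-0.228 to 0.671). No 2 libraries of a group agreed within sampling noise (26 pairs, chi-square per degree of freedom 6.08 to 47.4). Alternatives were DESeq2 1.42.0, its size factors, both filters, both placements of the conflicting libraries, the block, the compared groups alone and each library left out. Every gene of the set is accounted for: those called in any comparison are described by role, and at most 4 genes of each further list are named, those with the smallest P at 24 h, and others are said to be named after their values were seen. The genes and lists were chosen with earlier results of these data known. Scripts were tested on simulated data.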

Additional observations from a re-analysis of the deposited data

Results flagged for a closer look

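The difference between wild type p53 and pGFP changed from 6 h to 24 h for 3 of the 35 tested Wnt genes by the edgeR interaction test, where 6.51% of all tested genes passed. LEF1 changed by -1.47 on the log2 scale (adjusted P = 0.000595), WNT5B by 0.88 (adjusted P = 0.00813) and WNT9A by 1.36 (adjusted P = 0.00365).

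The 2 libraries at 6 h with conflicting labels held reads of genes that were near zero in pGFP. In the library whose genotype field names p53 TM, SFRP4 was at 2.61 CPM, DKK2 at 1.26, WNT4 at 1.14, WNT11 at 0.163, WNT7B at 0.0934, SFRP2 at 0.0700 and WNT7A at 0.0233, each above all 3 pGFP libraries of 6 h. The values of WNT7B, SFRP2 and WNT7A there rest on 4, 3 and 1 counts, too few to be read as a rise. In the library whose genotype field names p53 O6-meG, WNT11 was at 0.0493 CPM, above the pGFP libraries, while SFRP4 and WNT4 were at 0.0246 CPM. That WNT11 value rests on 2 counts, against at most 1 in a pGFP library of 6 h. No test was made on these libraries by themselves.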

How the results depend on the processing

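Of the 185 calls of Wnt genes over all comparisons, 111 held in every alternative and with each library left out, and 0 changed sign. Counts of called genes follow where they moved by over 1.5 times; the cause was not tested, except that fewer genes are tested under a stricter filter. With at least 10 counts in every library, 27 of the genes were tested and the counts were 4 and 13 for wild type p53 against pGFP at 6 h and 24 h, 2 and 15 for p53 O6-meG, 6 for p53 TM at 24 h, 4 and 13 for wild type p53 against the RW mutant, 2 for p53 TM against wild type p53 at 6 h, and 2 and 6 for p53 TM against p53 O6-meG; of all genes so filtered 42.4% passed for wild type p53 against pGFP and 13.4% for p53 TM against pGFP at 24 h. With the unassigned libraries placed by genotype field, the counts at 6 h were 0 for p53 O6-meG against pGFP and 0 for p53 TM against wild type p53 and against p53 O6-meG, and 7 for the last at 24 h. Placed by the first part of the title, the change over time gave 5. DESeq2 gave 17 for p53 TM against pGFP at 24 h (13% of all genes) and 5 for the change over time (12.4%). Fits of the compared groups alone gave 7 for p53 TM against pGFP (6.34% of all genes) and 11 against wild type p53 (9.31%) at 24 h, and 3 and 2 for p53 TM against p53 O6-meG at 6 h (3.29%) and 24 h (1.29%).

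With the replicate block the counts were 11 for p53 O6-meG against pGFP at 6 h (17.2% of all genes), 20 for p53 TM against pGFP at 24 h (21.7%), 4 and 2 for p53 O6-meG against wild type p53 at 6 h (6.42%) and 24 h (0.534%), 9 for p53 TM against p53 O6-meG at 6 h (12.2%) and 8 for the change over time (18.3%); the other counts stayed within 1.5 times. The 6 h numbers are not shown to pair the libraries.

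Leaving out a single library at a time gave 8 to 12 and 16 to 21 for wild type p53 against pGFP at 6 h and 24 h, 0 to 0 for the RW mutant at both times, 3 to 6 and 20 to 24 for p53 O6-meG, 0 to 0 and 6 to 13 for p53 TM (6 without replicate 1 of p53 TM at 24 h), 9 to 11 and 16 to 22 for wild type p53 against the RW mutant, 5 to 10 and 13 to 20 for p53 TM against wild type p53, 0 to 0 for p53 O6-meG against wild type p53, 2 to 5 and 7 to 14 for p53 TM against p53 O6-meG, 14 to 19 between the times with pGFP and with the RW mutant, and 3 to 5 for the change over time. Genes with few reads, such as WNT7A and SFRP2, are limited by depth.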
